A study of Mus musculus with 6 samples.

Results

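The unfolded protein response genes and endoplasmic reticulum (ER) chaperones were measured as 78 probe sets of 34 genes, among 45033 probe sets and 18192 genes in all. The members were chosen by name, as every probe set of the array that the platform annotation assigns to 1 of the 34 genes alone. The rule uses no measured value, although the genes were picked with earlier results of these data known. All 34 genes had at least 1 probe set, and 10 had exactly 1. RNA came from C2C12, a line of mouse myoblasts, the muscle precursor cells that stop dividing and fuse into myotubes in low serum. In the tested cells a short hairpin RNA (shRNA) against PRDM2, a histone methyltransferase of the PR domain family, had been transfected, and in the control cells an shRNA against GFP. Cells of both groups were kept for 28 hours in Dulbecco's medium containing 2% horse serum, and each group had 3 arrays, numbered 1 to 3 in the titles and called biological replicates. The sources used here do not say whether the cells were a clone or a pool, or whether they were selected, and p-values measure only the spread between these arrays.

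The ER folds proteins that are secreted or set into membranes. When unfolded proteins accumulate there, the chaperone BiP (Hspa5) leaves 3 membrane sensors, PERK (Eif2ak3), IRE1 (Ern1) and ATF6. IRE1 splices Xbp1 mRNA and ATF6 is cut to a transcription factor, and both induce chaperones and the machinery of ER-associated degradation (ERAD), which exports misfolded proteins to the proteasome. PERK phosphorylates the initiation factor eIF2-alpha, which lowers protein synthesis and favours translation of ATF4, the activator of CHOP (Ddit3), Trib3, Asns and Chac1. Amino acid shortage reaches ATF4 through another eIF2-alpha kinase, GCN2. In differentiating myoblasts ATF6 is known to be activated, and CHOP is known to restrain Myod1. These arrays measured mRNA level, not Xbp1 splicing, phosphorylation or protein.

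The promoters are given because the matches found to known elements differed by role, although not every member of a role had one. The table of RefSeq promoters (build GRCm38.p6, 250 bases before to 50 after each start) held 32851 entries, and 30 of the 34 members had one, all but Atf6, Manf, Hyou1 and Derl1. The ER stress element, CCAAT and CCACG with 9 bases of any kind between them, is the site bound by ATF6 with NF-Y, and was searched on both strands as exact letters. It was found in 39 of all entries, or 0.119%. Among members it lay in 7 of 13 chaperone promoters, 2 of 6 ERAD promoters, 0 of 3 sensor promoters and 0 of 8 promoters of the ATF4-CHOP branch. The 250 bases before the Hspa5 start, at chr2:34771840-34772089 on the plus strand, are shown with the fixed letters of the element in capitals, which begins 65 bases before the start.
Hspa5: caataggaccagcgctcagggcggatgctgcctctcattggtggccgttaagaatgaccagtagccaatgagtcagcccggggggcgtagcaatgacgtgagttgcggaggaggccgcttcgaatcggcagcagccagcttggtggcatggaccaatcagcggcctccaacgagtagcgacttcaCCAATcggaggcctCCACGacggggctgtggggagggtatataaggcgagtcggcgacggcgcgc
Further examples have 9 bases on either side of the element and are written in the direction of the gene. In Pdia6 and Syvn1 the element reads forward, and in Calr and Derl3 it reads on the opposite strand, as CGTGG, 9 bases and ATTGG.
Pdia6, chr12:17266482-17266518, plus strand: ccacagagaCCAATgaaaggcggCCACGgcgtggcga
Syvn1, chr19:6046523-6046559, plus strand: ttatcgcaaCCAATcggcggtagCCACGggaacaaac
Calr, chr8:84847066-84847102, minus strand: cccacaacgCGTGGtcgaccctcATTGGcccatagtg
Derl3, chr10:75893233-75893269, plus strand: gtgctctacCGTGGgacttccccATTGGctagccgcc
The composite element of ATF4 and C/EBP factors, TGATGNAA, was found in 1304 entries, or 3.97%. It lay in 3 of 8 promoters of the ATF4-CHOP branch (Asns, Chac1 and Trib3), in Herpud1 among the ERAD genes, and in 0 of 13 chaperone promoters. In Asns it reads forward, and in the others it reads on the opposite strand. In Trib3 it begins 15 bases into the transcript.
Asns, chr6:7693216-7693241, minus strand: ccagccacaTGATGaAActtcccgca
Chac1, chr2:119351040-119351065, plus strand: tccctgccgTTgCATCActcctgcca
Herpud1, chr8:94386308-94386333, plus strand: cacggcgggTTgCATCAgcccgcacc
Trib3, chr2:152344030-152344055, minus strand: agctcaggtTTaCATCAgccgggcgg
The shorter element II, ATTGG and CCACG with 1 base of any kind between them, was searched likewise and lay in Dnajb11 and Herpud1, against 12 of all entries (0.0365%). In Herpud1 it begins 52 bases before the start and the composite element 112 bases before it, so these sites do not overlap. The unfolded protein response element TGACGTGG lay in 0 of the 30 members with an entry and in 0.676% of all. A match is a run of letters and was not tested as a binding site. Sites outside the searched bases, or with any changed letter, were not counted, so a count of 0 does not mean that a gene lacks the element.

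Array facts that bear on every value come next. Prdm2 mRNA did not separate the groups. The brightest probe set of Prdm2 read 6.67, 6.33 and 6.02 in PRDM2 shRNA replicates 1, 2 and 3, against 6.19, 6.42 and 5.94 in GFP shRNA replicates 1, 2 and 3, in units of log2(intensity + 16). All levels below are in these units, whose lowest possible value is 4. Its log2 fold change (PRDM2 shRNA minus GFP shRNA, as throughout) was 0.15 (SE 0.19, adjusted p of 1 with limma). Directions therefore rest on the labels. Muscle markers were present in both groups. Of 12 genes 11 stood above 0, and without GFP shRNA replicate 2 1 passed (Mef2c, a muscle transcription factor, at a log2 fold change of 1.05, or 1.68 without that array, adjusted p = 0.046, limma). The list mean was 10.57, 10.50 and 10.59 in PRDM2 shRNA arrays and 10.18, 10.51 and 10.45 in GFP shRNA arrays. Of markers of other cells, 3 of 6 for macrophages (Adgre1, Csf1r and Cd14), 0 of 5 for endothelium, 0 of 3 measured for adipocytes and 1 of 2 measured for osteoblasts averaged 16 units of intensity or more. The macrophage list mean lay between 4.88 and 5.18 in PRDM2 shRNA arrays and between 4.89 and 5.19 in GFP shRNA arrays, with Ptprc near the floor at means of 4.33 in PRDM2 shRNA arrays and 4.14 in GFP shRNA arrays. The array labelled GFP shRNA replicate 2 stood apart from its group. It correlated at 0.9969 with PRDM2 shRNA replicate 2, against 0.9719 and 0.9742 with GFP shRNA replicates 1 and 3, across all probe sets, which share probe brightness. Over the 78 member probe sets, the median absolute log2 difference between PRDM2 and GFP shRNA arrays was 0.06 for number 2, 0.14 for number 1 and 0.12 for number 3. A mix-up of labels, joint processing and like RNA cannot be told apart for this array. If its label is wrong, every difference between PRDM2 and GFP shRNA that includes it is affected, so results are also given without it. In such bulk RNA, fewer cells of a type and less RNA per cell cannot be told apart.

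No member passed the adjusted threshold between the groups. Of 78 probe sets 0 passed an adjusted p of 0.05 over all 45033 (limma), where the share of all probe sets called was 0%. At an unadjusted p under 0.05, 0 members were higher and 3 lower (3.85%), against 1.13% and 1.81% of all probe sets. Probe sets are called bright here where their mean intensity reached the offset added to every value. Bright were 80.8% of the member probe sets, against 43.3% of all. Among the 19487 bright probe sets, 350 were higher and 563 lower (2.89%) at that p (limma). The median log2 fold change was 0.04 over the members and -2.5e-05 over all probe sets. Taking the brightest probe set of each gene, 32 of 34 genes lay within 0.25 of no change, on the log2 scale. The 95% interval of the difference lay within 0.5 on either side of 0 for 23 genes, and within 1, a doubling or halving, for 31. Trib3, Asns and Chac1 had wider intervals. Without GFP shRNA replicate 2, 0 members passed, while 0.526% of all probe sets did. The members were also without a call with the replicate number as a block (0% of all probe sets called), without both arrays numbered 2 (0.127%), and without both and with the block (1.6%). The smallest adjusted p of a member without GFP shRNA replicate 2 was 0.19, and 8 member probe sets had an unadjusted p under 0.05 (10.3%, against 10.2% of all probe sets, limma). Among bright probe sets that share was 19.1% in the same fit. The member share, which includes dim members, was therefore level with all probe sets but below the bright ones.

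**Figure D1:**
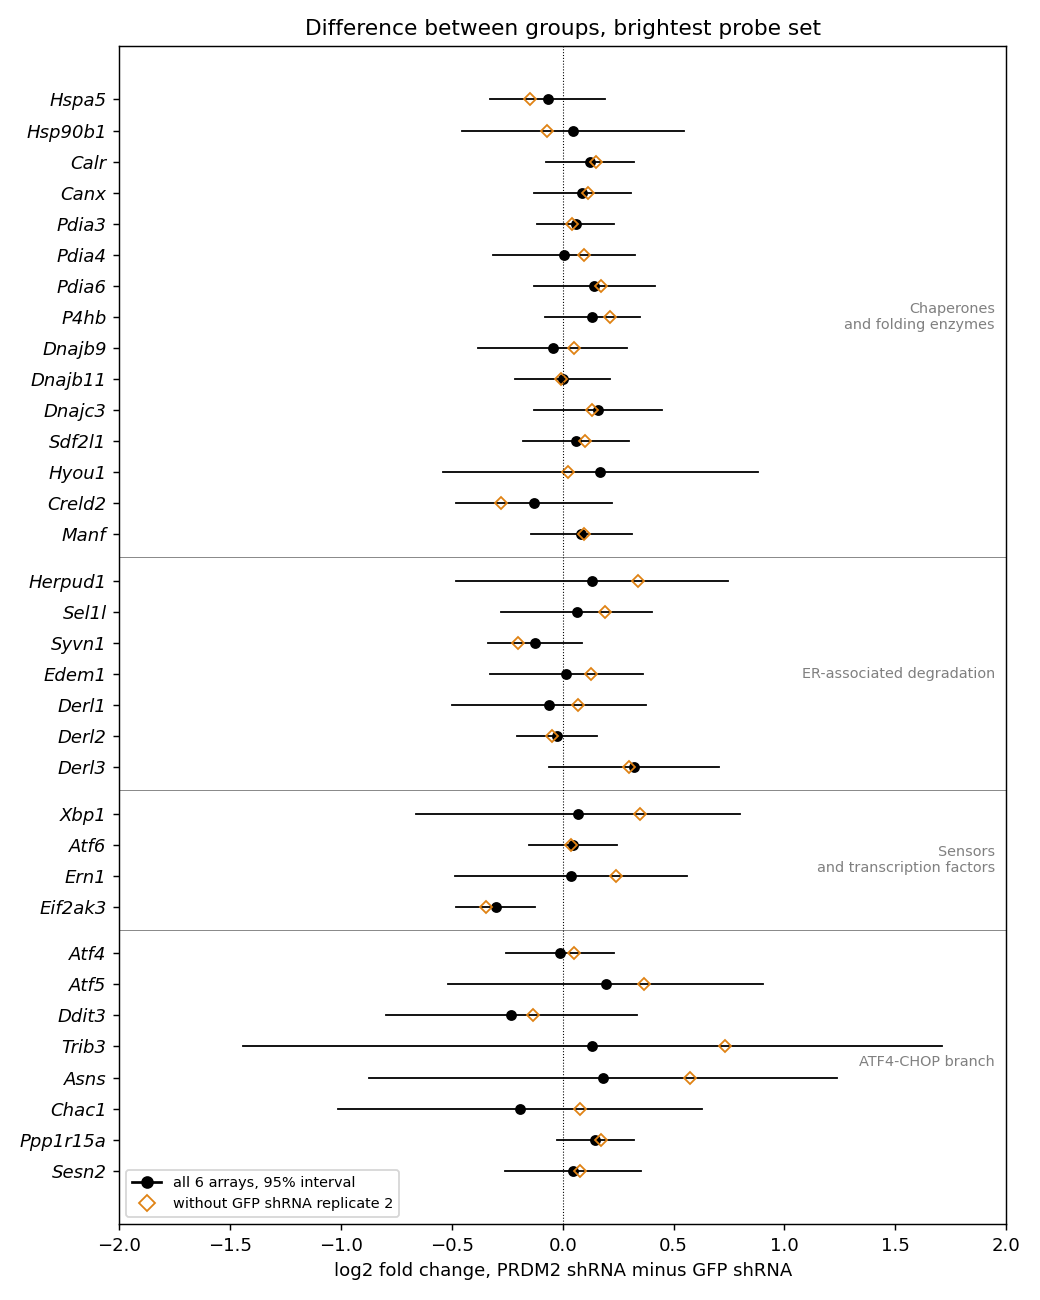
Log2 fold change (horizontal axis, PRDM2 shRNA minus GFP shRNA) of the brightest probe set of each of the 34 members, by role. Black points and bars are estimates and 95% intervals from all 6 arrays, and open diamonds are estimates without GFP shRNA replicate 2. Of the 34 intervals only that of Eif2ak3 (-0.48 to -0.13) leaves out 0, and that of Trib3 is the widest (-1.44 to 1.71).

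Among the sensors, Eif2ak3, which encodes PERK, had the smallest p of any member. Its brightest probe set read 5.85, 5.94 and 5.88 in PRDM2 shRNA replicates 1, 2 and 3, against 6.26, 6.11 and 6.21 in GFP shRNA replicates 1, 2 and 3. Every PRDM2 shRNA array lay below every GFP shRNA array. PRDM2 shRNA stood at -0.30 relative to GFP shRNA on the log2 scale (limma, SE 0.07, 95% interval -0.48 to -0.13, unadjusted p = 0.0052, adjusted p of 1). Differences within a number were -0.42, -0.17 and -0.33 for numbers 1, 2 and 3. Without GFP shRNA replicate 2 it was -0.35 (SE 0.08, adjusted p = 0.19). The other 2 probe sets of Eif2ak3 averaged 1.64 and 1.16 units of intensity, where the offset of 16 hides any change, and stood at -0.06 and -0.0004. Across all probe sets, 4.06% had groups that did not overlap with the PRDM2 shRNA arrays lower, and 3.18% with them higher. Of the 78 member probe sets these were 6 (7.69%) and 2 (2.56%).

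By brightest probe set Ern1, which encodes IRE1, and its substrate Xbp1 were highest on the array numbered 2 in both groups. The arrays numbered 2 lie so close to each other that they may not be separate observations. Xbp1 read 8.96, 9.79 and 8.998 in PRDM2 shRNA replicates 1, 2 and 3, against 8.86, 9.73 and 8.94 in GFP shRNA replicates 1, 2 and 3. In both groups the array numbered 2 was the high one, and the other 4 arrays lay within a narrow band. The log2 fold change of Xbp1 was 0.07 (SE 0.31, adjusted p of 1, limma), or 0.35 (SE 0.26) without GFP shRNA replicate 2. The dimmest Xbp1 probe set, at 41.3 units, was highest on number 2 in neither group and stood at 0.09 (SE 0.18). Ern1 read 6.13, 6.63 and 6.10 in PRDM2 shRNA arrays, against 6.14, 6.65 and 5.95 in GFP shRNA arrays, a log2 fold change of 0.04 (SE 0.22), or 0.24 (SE 0.18) without that array. Of its 5 probe sets this was the brightest, and the others averaged under 16 units. The brightest probe set of Atf6, the membrane-bound transcription factor, read 7.40, 7.36 and 7.42 in PRDM2 shRNA arrays. It read 7.24, 7.33 and 7.48 in GFP shRNA arrays, with no array apart. Its log2 fold change was 0.05 (SE 0.08, 95% interval -0.15 to 0.25). The dimmer probe sets of Atf6, at 54.0 and 30.85 units, had number 2 highest in both groups. They stood at -0.22 (SE 0.17) and -0.04 (SE 0.10).

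The chaperones and folding enzymes lay close to equal between the groups. Of 31 probe sets 22 (71.0%) stood above 0, against 22504 of all 45033, with a median log2 fold change of 0.06 and a range of -0.13 to 0.21, and 0 of 31 passed. By brightest probe set, 11 of 15 genes stood above 0, 0 had groups that did not overlap, and 13 had a 95% interval within 0.5 of no change. Hspa5, the BiP chaperone and the usual gauge of ER stress, read 10.28, 10.11 and 10.31 in PRDM2 shRNA replicates 1, 2 and 3, against 10.28, 10.15 and 10.48 in GFP shRNA replicates 1, 2 and 3. The groups overlapped, at a log2 fold change of -0.07 (limma, SE 0.11, 95% interval -0.33 to 0.19, adjusted p of 1). Without GFP shRNA replicate 2 Hspa5 stood at -0.15 (SE 0.11). Its dimmest probe set read 6.78, 5.83 and 6.63 in PRDM2 shRNA arrays, against 6.63, 5.81 and 6.92 in GFP shRNA arrays, with the arrays numbered 2 low in both groups.

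The disulfide isomerases, which form and rearrange disulfide bonds, showed narrow intervals. P4hb, which is also a subunit of the collagen prolyl hydroxylase, read 10.43, 10.45 and 10.43 in PRDM2 shRNA arrays, against 10.25, 10.46 and 10.19 in GFP shRNA arrays. All 3 PRDM2 shRNA arrays lay inside the upper part of the GFP shRNA range, and the log2 fold change was 0.13 (SE 0.09). The groups overlapped only through GFP shRNA replicate 2, and without that array P4hb stood at 0.21 (SE 0.08). Pdia6 read 8.90, 9.05 and 9.14 in PRDM2 shRNA arrays, against 8.69, 8.94 and 9.03 in GFP shRNA arrays. By this brightest probe set it was higher within each number, with overlapping groups and a log2 fold change of 0.14 (SE 0.11). Without GFP shRNA replicate 2 it stood at 0.17 (SE 0.13). The dimmer Pdia6 probe set, at 5.99 units and so under the offset, stood at 0.13 (SE 0.07). There all PRDM2 shRNA arrays lay above all GFP shRNA arrays. Pdia3 and Pdia4 stood at 0.06 (SE 0.07) and 0.01 (SE 0.13). Calr, the lectin chaperone calreticulin of glycoproteins, read 10.19, 10.37 and 10.27 in PRDM2 shRNA arrays, against 10.06, 10.21 and 10.20 in GFP shRNA arrays, a log2 fold change of 0.12 (SE 0.08). Its membrane-bound relative Canx stood at 0.09 (SE 0.09).

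The HSP40 co-chaperones of BiP overlapped between the groups. Dnajc3, which also inhibits PERK, read 7.30, 6.89 and 7.20 in PRDM2 shRNA arrays, against 6.91, 6.92 and 7.07 in GFP shRNA arrays. PRDM2 shRNA replicates 1 and 3 were above all GFP shRNA arrays and replicate 2 below them, at a log2 fold change of 0.16 (SE 0.12). Dnajb9 and Dnajb11 stood at -0.05 (SE 0.14) and -0.0003 (SE 0.09). Hyou1, a nucleotide exchange factor for BiP, had the largest SE of the chaperones by brightest probe set. It read 8.24, 7.19 and 7.52 in PRDM2 shRNA replicates 1, 2 and 3, against 7.89, 7.19 and 7.35 in GFP shRNA replicates 1, 2 and 3. The order of the numbers was the same in both groups, with number 1 high and number 2 low, and the log2 fold change was 0.17 (SE 0.30). The next probe set of Hyou1, at 22.15 units, went the other way, with number 2 highest in both groups. That probe set stood at 0.006 (SE 0.09). By brightest probe set Hsp90b1, the ER form of HSP90, was lowest on number 2 in both groups, at 9.76 and 9.82. It stood at 0.05 (SE 0.21), although its second probe set did not share this order. Of the rest, Sdf2l1, a component of BiP complexes, stood at 0.06 (SE 0.10), and the secreted factors Creld2 and Manf stood at -0.13 (SE 0.15) and 0.08 (SE 0.10). Without GFP shRNA replicate 2 Creld2 stood at -0.28 (SE 0.11) and Manf at 0.09 (SE 0.11).

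**Figure D2:**
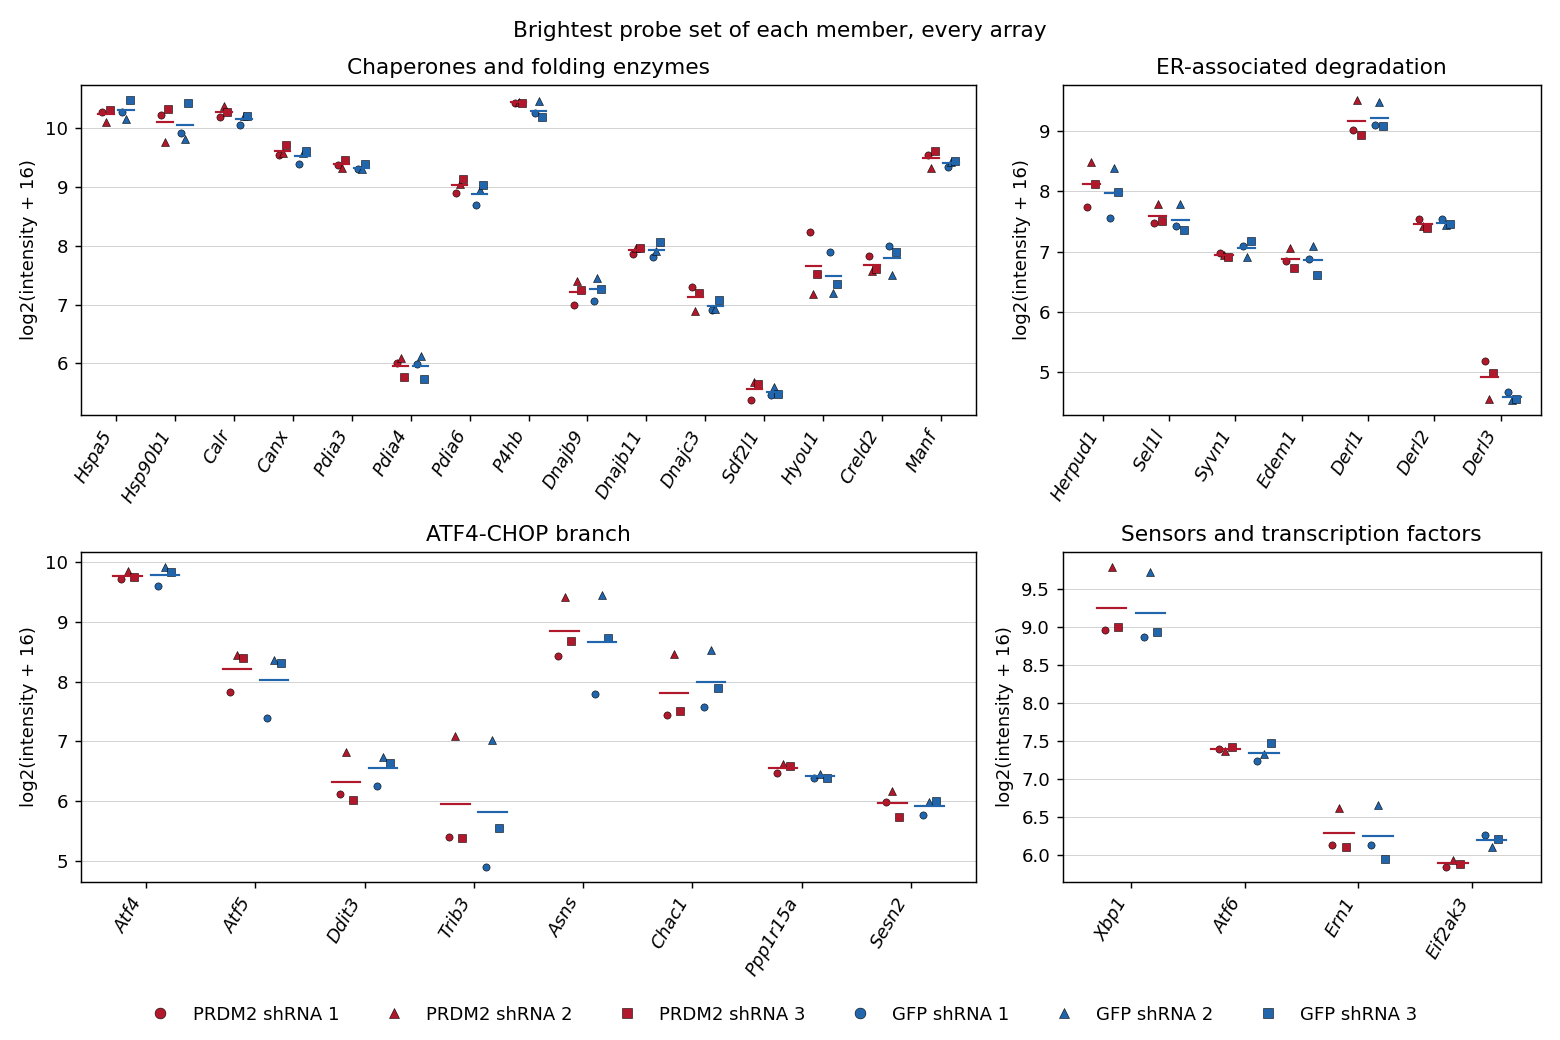
Level of the brightest probe set of each member on each array, as log2(intensity + 16) on the vertical axis, with PRDM2 shRNA arrays in red at the left and GFP shRNA arrays in blue at the right of each gene. Circles, triangles and squares are replicates 1, 2 and 3, and bars are group means. For Trib3, Asns, Chac1, Xbp1 and Herpud1 the triangles lie highest in both colours, whereas the red points of Eif2ak3 lie below the blue ones.

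Among the ERAD genes, Syvn1 had the smallest unadjusted p of any probe set. It encodes HRD1, the ubiquitin ligase of the ERAD complex. Its dimmer probe set read 6.49, 6.65 and 6.62 in PRDM2 shRNA replicates 1, 2 and 3, against 6.82, 6.68 and 6.90 in GFP shRNA replicates 1, 2 and 3, with no overlap. The log2 fold change was -0.22 (SE 0.09, limma, unadjusted p = 0.048, adjusted p of 1). The brighter probe set of Syvn1 read 6.99, 6.94 and 6.90 in PRDM2 shRNA arrays, against 7.10, 6.92 and 7.18 in GFP shRNA arrays, with overlap, and stood at -0.13 (SE 0.09). Nearly all of the offset came from numbers 1 and 3, since within number 2 the differences were -0.03 and 0.02 for these probe sets. Without GFP shRNA replicate 2 the dimmer one stood at -0.28 (SE 0.09) and the brighter one at -0.20 (SE 0.08).

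Derl1, a channel component for retrotranslocation, had 4 probe sets that all stood below 0, between -0.19 and -0.06. They disagreed on the replicate number. The brightest read 9.03, 9.52 and 8.94 in PRDM2 shRNA arrays, against 9.10, 9.48 and 9.09 in GFP shRNA arrays, with number 2 highest in both groups. Without GFP shRNA replicate 2 this probe set stood at 0.07 (SE 0.18), and the others between -0.24 and -0.21. The probe set at -0.19 (SE 0.09) read 6.84, 6.97 and 6.85 in PRDM2 shRNA arrays, against 7.05, 6.98 and 7.20 in GFP shRNA arrays, with no overlap and number 2 not highest in GFP shRNA arrays. Its paralogs Derl2 and Derl3 stood at -0.03 (SE 0.08) and 0.32 (SE 0.16). Derl3 was dim, at 5.19, 4.56 and 4.99 in PRDM2 shRNA arrays, against 4.67, 4.55 and 4.56 in GFP shRNA arrays. Its mean lay under 5, the level of 16 units, so the offset bears on the size of its change, which was 0.69 with an offset of 1 and 0.12 with an offset of 64. Without single arrays it lay between 0.18 and 0.50. Its smallest adjusted p was 0.087 (limma), at 0.48 without both arrays numbered 2 and with the block.

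Herpud1, a stress-induced component of the HRD1 complex, read 7.74, 8.48 and 8.12 in PRDM2 shRNA replicates 1, 2 and 3, against 7.56, 8.40 and 7.99 in GFP shRNA replicates 1, 2 and 3. The 3 numbers kept the same order in both groups, and PRDM2 shRNA was higher within each by this brightest probe set. The log2 fold change was 0.13 (SE 0.26), or 0.34 (SE 0.23) without GFP shRNA replicate 2. The other probe set of Herpud1, at 163.4 units, kept the order but not the rise. Its differences within numbers 1, 2 and 3 were 0.12, -0.01 and -0.06, and it stood at 0.02 (SE 0.31). Sel1l, the partner of HRD1, read 7.47, 7.80 and 7.50 in PRDM2 shRNA arrays, against 7.43, 7.78 and 7.37 in GFP shRNA arrays, at 0.06 (SE 0.14). Edem1, a mannosidase-like ERAD factor, stood at 0.02 (SE 0.14) by its brightest probe set, or 0.13 (SE 0.13) without GFP shRNA replicate 2. The dimmer Edem1 probe set, at 62.88 units, stood at 0.16 (SE 0.22), or 0.40 (SE 0.14) without that array. The 18 ERAD probe sets had a median of -0.03, with 8 above 0 and 10 below and 0 past the threshold. Without GFP shRNA replicate 2 the median was 0.10.

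The ATF4-CHOP branch held the widest spread of all roles, and most of its genes were highest on the array numbered 2 in both groups. Trib3, a pseudokinase induced by ATF4 and CHOP, read 5.39, 7.09 and 5.38 in PRDM2 shRNA replicates 1, 2 and 3, against 4.90, 7.02 and 5.54 in GFP shRNA replicates 1, 2 and 3. The array numbered 2 exceeded the mean of the other two by 1.70 in PRDM2 shRNA arrays and by 1.80 in GFP shRNA arrays. Between labels the log2 fold change was 0.13 (SE 0.66), or 0.73 (SE 0.54, adjusted p = 0.79, limma) without GFP shRNA replicate 2. The second probe set of Trib3 was also highest on number 2, at 5.27, 6.58 and 5.54 in PRDM2 shRNA arrays, against 5.12, 6.72 and 5.50 in GFP shRNA arrays.

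Asns, the asparagine synthetase, read 8.43, 9.42 and 8.68 in PRDM2 shRNA arrays, against 7.80, 9.45 and 8.74 in GFP shRNA arrays. Number 2 was high and number 1 low in both groups. The log2 fold change was 0.18 (SE 0.44), or 0.58 (SE 0.37) without GFP shRNA replicate 2. Chac1, an enzyme that degrades glutathione, read 7.45, 8.47 and 7.50 in PRDM2 shRNA arrays, against 7.57, 8.53 and 7.89 in GFP shRNA arrays. It too was highest on number 2, and stood at -0.19 (SE 0.34), or 0.08 (SE 0.32) without GFP shRNA replicate 2. Atf5, a transcription factor translated under eIF2-alpha phosphorylation, read 7.82, 8.44 and 8.39 in PRDM2 shRNA arrays, against 7.39, 8.37 and 8.31 in GFP shRNA arrays, with number 1 low in both groups. Its log2 fold change was 0.19 (SE 0.30), or 0.37 (SE 0.31) without GFP shRNA replicate 2.

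Atf4 itself, whose activity is set mainly by translation, varied little by its brightest probe set. It read 9.72, 9.85 and 9.76 in PRDM2 shRNA arrays, against 9.60, 9.92 and 9.85 in GFP shRNA arrays, a log2 fold change of -0.01 (SE 0.10, 95% interval -0.26 to 0.23). The next probe set of Atf4, at 609.9 units, stood at -0.06 (SE 0.13) and differed by -0.42 within number 3. Number 2 was highest in neither group there. Ddit3, which encodes CHOP, read 6.11, 6.82 and 6.01 in PRDM2 shRNA replicates 1, 2 and 3, against 6.26, 6.75 and 6.64 in GFP shRNA replicates 1, 2 and 3. The groups overlapped through number 2, and the log2 fold change was -0.23 (SE 0.24, adjusted p of 1, limma). Without GFP shRNA replicate 2 Ddit3 stood at -0.13 (SE 0.26). Its second probe set averaged 8.49 units, under the offset, and read 4.50, 4.64 and 4.37 in PRDM2 shRNA arrays, against 4.76, 4.67 and 4.73 in GFP shRNA arrays. Its groups did not overlap, at -0.22 (SE 0.09, limma, unadjusted p = 0.046, adjusted p of 1).

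Ppp1r15a, which encodes GADD34, the phosphatase subunit that reverses eIF2-alpha phosphorylation, was the only brightest probe set with all PRDM2 shRNA arrays above all GFP shRNA arrays. It read 6.47, 6.62 and 6.59 in PRDM2 shRNA arrays, against 6.39, 6.46 and 6.38 in GFP shRNA arrays. The log2 fold change was 0.15 (SE 0.07, limma, unadjusted p = 0.087, adjusted p of 1), and 2.93% of all genes had such groups, with 4.24% the other way round. Eif2ak3 was the 1 member with all PRDM2 shRNA arrays lower by brightest probe set. Sesn2, a stress-induced inhibitor of mTORC1 signalling, stood at 0.05 (SE 0.13). The 14 probe sets of the branch had a median of 0.03, with 8 above 0 and 6 below. Without GFP shRNA replicate 1 the median was -0.16, with 2 above and 12 below.

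Counted over the branch, the array numbered 2 was the highest of 3 in both groups for 7 of 8 genes, Sesn2 being the exception, against 21.5% of all genes by brightest probe set. Over all 14 probe sets of the branch it was 9, and 1 was lowest there, against 20.7% and 21.7% of all probe sets. Among bright probe sets these shares were 25.9% and 25.4%. For ERAD genes it was 4 of 7, for sensors 2 of 4 and for chaperones 5 of 15, while number 2 was lowest in both groups for another 5 of 15 chaperones, against 23.2% of all genes. The median gap of number 2 over the mean of numbers 1 and 3 was 0.55 in PRDM2 shRNA arrays and 0.41 in GFP shRNA arrays for the branch, -0.05 and 0.03 for chaperones, and 0.0002 and -0.02 for all genes. Across the 34 members this gap correlated between the groups at 0.92, and across all 18192 genes at 0.59, as a description over genes of the same 6 arrays. The pattern was noticed in the data, and the arrays numbered 2 lie so close to each other that they may not count as separate observations. All 4 members with the composite ATF4 element had number 2 highest in both groups, as did 18 of all 34 members. Atf4, Atf5, Ddit3 and Ppp1r15a of the branch did so with no such element found. Of the 9 with the ER stress element, 1 was highest and 4 were lowest on number 2 in both groups. A link between element and pattern was not tested.

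**Figure D3:**
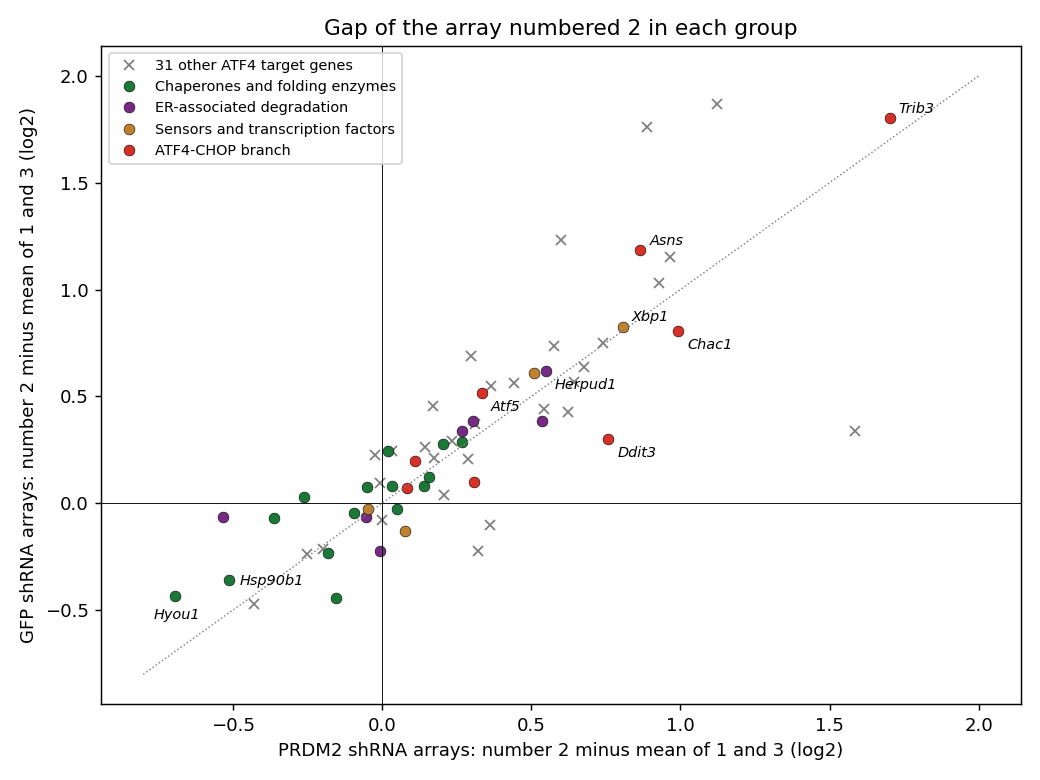
Gap of the array numbered 2 to the mean of arrays 1 and 3 in log2 units, in PRDM2 shRNA arrays (horizontal axis) and GFP shRNA arrays (vertical axis), for the brightest probe set of the 34 members, coloured by role, and of 31 other ATF4 target genes as grey crosses. Points on the dotted line have equal gaps in both groups. Trib3 lies at 1.70 and 1.80 and Hyou1 at -0.69 and -0.43.

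Other genes of the pathway, from lists chosen for their roles, also gave no call. Of 31 measured further ATF4 targets, mostly amino acid synthesis enzymes, transporters and tRNA synthetases, 0 passed in either direction, 18 stood above 0 and 13 below. Number 2 was highest in both groups for 20 of them. Wars, a tryptophanyl tRNA synthetase, read 6.82, 7.14 and 6.72 in PRDM2 shRNA arrays, against 7.25, 7.18 and 7.31 in GFP shRNA arrays, without overlap, at -0.35 (SE 0.12). Aars, the alanyl tRNA synthetase, stood at -0.17 (SE 0.10). The list mean on number 2 was 8.10 in both groups, against 7.47 to 7.84 on the other 4 arrays.

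Of 22 further folding genes 15 stood above 0 and 7 below, with 0 past the threshold. Ganab, the glucosidase II alpha subunit that trims glycans before calnexin binding, read 8.08, 8.07 and 8.07 in PRDM2 shRNA arrays, against 8.43, 8.13 and 8.43 in GFP shRNA arrays, at -0.26 (SE 0.10). Ppib, an ER prolyl isomerase that acts on collagen, read 10.76, 10.73 and 10.79 in PRDM2 shRNA arrays, against 10.51, 10.70 and 10.50 in GFP shRNA arrays, at 0.19 (SE 0.08). The groups did not overlap in either, and GFP shRNA replicate 2 lay near the PRDM2 shRNA arrays. Of 15 further ERAD genes 5 stood above 0 and 10 below, and of 12 further sensors and processing enzymes 4 and 8, again with 0 past the threshold in either list. Rnf5, a ubiquitin ligase of the ER membrane, read 6.93, 7.00 and 6.87 in PRDM2 shRNA arrays, against 7.47, 7.08 and 7.39 in GFP shRNA arrays, without overlap, at -0.38 (SE 0.11), or with an adjusted p of 0.093 without GFP shRNA replicate 2 (limma). Edem2 stood at -0.30 (SE 0.14), Creb3l2, an ATF6-like membrane factor, at 0.18 (SE 0.09), and Mbtps1, the protease that cuts ATF6, at -0.21 (SE 0.10).

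**Figure D4:**
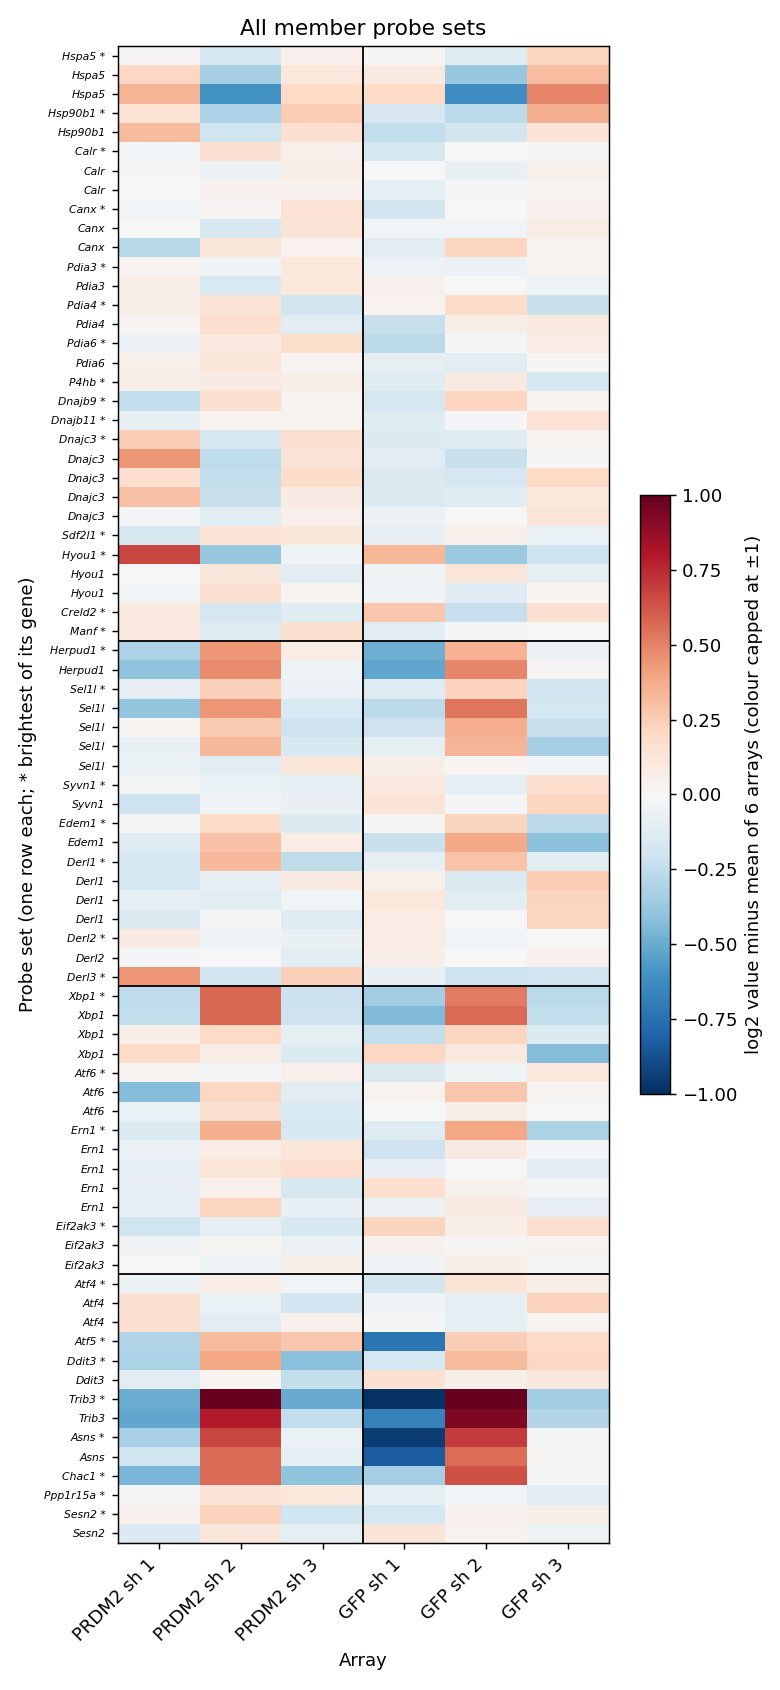
Deviation of every one of the 78 member probe sets from its mean over 6 arrays, in log2 units by colour, with PRDM2 shRNA arrays 1 to 3 left of the line and GFP shRNA arrays 1 to 3 right of it. Rows run by role from chaperones through ERAD and sensors to the ATF4-CHOP branch, and an asterisk marks the brightest probe set of a gene. Both columns numbered 2 are red for Trib3, Asns, Chac1, Xbp1 and Herpud1 and blue for the dimmer Hspa5 probe sets.

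Of 10 proliferation markers, 6 were lowest on number 2 in both groups. The other 4 (Mki67, Ccna2, Aurkb and Birc5) were not, and Ccna2 and Birc5 exceeded the mean of numbers 1 and 3 there in both groups. The list mean over 10 genes was 8.79, 8.49 and 8.85 in PRDM2 shRNA arrays and 8.83, 8.51 and 8.78 in GFP shRNA arrays, lowest on number 2 in both groups. For the ATF4-CHOP branch the list mean was 7.17, 7.86 and 7.26 in PRDM2 shRNA arrays and 6.96, 7.81 and 7.42 in GFP shRNA arrays, and for chaperones 8.54, 8.45 and 8.55 in PRDM2 shRNA arrays and 8.42, 8.44 and 8.51 in GFP shRNA arrays. The sources used here do not say what the shared number stands for, and its part in these values was not tested.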

How the data were processed

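Per the labels' protocols, Trizol was used to extract the RNA, and 8 ug per sample gave the cRNA for 1 Affymetrix mouse array. The authors' deposited table holds probe set intensities on a linear scale. GCOS and PLIER are named in the submitters' processing notes, with no version. The sources used here do not state how arrays were normalized to each other, and 0 further sample columns were present. Array medians lay between 10.8 and 11.4 units, and 3 arrays per group limit the precision. Replicates are those the labels call biological.

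Of 45101 probe sets, 64 controls and 4 of Gngt1, which held the overwritten number 14699 in 1 array, were left out. Gene names came from the platform annotation (932 probe sets name several genes, 9160 none), and 0 symbols changed against the table of assembly GRCm38.p6. Values were quantile normalized and taken as log2(intensity + 16), an offset that shrinks the fold changes of dim probe sets. In R 4.3.3, limma 3.58.1 fitted all 45033 probe sets with lmFit and eBayes and no block. Tests were two-sided, p-values were adjusted over all probe sets by Benjamini-Hochberg, and the threshold was 0.05. SDs are not printed where every array is given, and SEs are limma's moderated ones. The fit was tested on simulated data. Of the 78 member probe sets 11 end in _s_at and 7 in _x_at, names that mark possible cross-hybridisation. Among these are the brightest probe sets of Xbp1, Hyou1, Derl1, Syvn1 and Canx (_s_at) and of Trib3 (_x_at).

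The members and lists were chosen with earlier results of these data known. All 34 members are named. Hspa5, Xbp1, Atf4, Ddit3 and, per role, the 4 genes of smallest p were picked for full values, and other members were added after their values were seen. Other pathway genes are the 2 of smallest p per list. Deviations from the group means correlated at 0.32, 0.60 and 0.62 between same-numbered arrays, which treats the numbers as pairs from the data and not from the labels. Alternatives covered scaling, offset, dim probe sets, gene summaries, eBayes settings, array weights, the replicate block and left-out arrays.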

Additional observations from a re-analysis of the deposited data

How the results depend on the processing

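Under all 18 alternatives 0 member probe sets passed the threshold. Over all probe sets 0 passed, except without GFP shRNA replicate 2 (237, with 119 higher and 118 lower), without both arrays numbered 2 (57) and without both but with the replicate number as a block (721). Leaving out single arrays gave 0 to 237. The replicate block with all 6 arrays gave 0 calls and changed no other call, with 7.84% of probe sets at an unadjusted p under 0.05 (limma). Medians by role under left-out arrays ranged from -0.0895 to 0.0986 for ERAD and from -0.0834 to 0.0876 for sensors, lowest without PRDM2 shRNA replicate 2 and highest without GFP shRNA replicate 2. Chaperone and ATF4-CHOP medians moved by less than the spread between arrays, although that of the ATF4-CHOP branch ranged from -0.16 to 0.09.

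Some signs turned when single arrays were left out, all in values short of the threshold. The ranges were -0.146 to 0.0209 for Hspa5, -0.199 to 0.347 for Xbp1, -0.109 to 0.0531 for Atf4, -0.123 to 0.393 for Atf5, -0.523 to 0.0765 for Chac1, -0.0758 to 0.340 for Herpud1, -0.0386 to 0.192 for Sel1l, -0.0103 to 0.111 for Atf6, -0.131 to 0.243 for Ern1 and -0.0122 to 0.313 for Prdm2. Atf4 also turned to 0.0165 without both arrays numbered 2, with or without the block, and Atf6 to -0.0732 as the mean of its probe sets. The causes were not tested. Eif2ak3 kept its sign in all alternatives, between -0.39 and -0.12, with a smallest adjusted p of 0.16 (limma). Signal near the offset limits Derl3, the second Ddit3 probe set and the dim probe sets of Eif2ak3 and Ern1, and Derl3 could not be fitted where dim probe sets were left out.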

Other observations

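Heat shock proteins of the cytosol and mitochondria, many of which answer to HSF1, were set beside the ER chaperones. Of 11 measured genes 10 stood below 0 and 1 above, with a median log2 fold change of -0.11, or -0.23 without GFP shRNA replicate 2, and 0 passed the threshold in either fit. The list mean was 8.73, 8.64 and 8.83 in PRDM2 shRNA arrays and 8.997, 8.68 and 8.97 in GFP shRNA arrays, so the offset lay in numbers 1 and 3. ER chaperones stood above 0 in 11 of 15 genes, at a median of 0.06. The difference between the lists was not tested.

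Hspa1a and Hspa1b, the inducible HSP70 genes, are near-identical copies whose probe sets may share signal, and stood at -0.30 and -0.47. Hspb1, a small heat shock protein of muscle, stood at -0.33. Of the 3, only Hspa1a had groups that did not overlap, at a mean intensity of 7.78 units, under the offset.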
